A study of Mus musculus with 3 samples.

Results

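Upstream proximal peaks of the cardiac transcription factor Isl1 are described here. They are the binding sites whose centre lies from 1 to 10 kb upstream of the closest transcription start site (TSS) in the list that the authors deposited. The list gives a signed distance in bp for each peak. Peaks from 10000 bp upstream up to, but not including, 1000 bp upstream were taken after identical lines had been dropped, which gave 617 of the 14082 distinct peaks. Among the other peaks, 5416 lay within 1 kb of a TSS (promoter peaks), 856 lay from 1 to 10 kb downstream (downstream proximal peaks) and 7193 lay farther than 10 kb away (distal peaks).

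The series mapped Isl1 occupancy by ChIP-Seq, which enriches DNA fragments crosslinked to a protein with an antibody against it and then sequences them. The cells were cardiac progenitor cells (CPCs) at day 5 of directed differentiation from the mouse embryonic stem cell (ESC) line E14 Tg(Nkx2-5-EmGFP), a single line that carries a green fluorescent reporter of the cardiac gene Nkx2-5. The 3 samples were 2 Isl1 ChIP replicates, made with a monoclonal Isl1 antibody from the DSHB, and 1 input sample of the same cells with no antibody. All were of this reporter line without a knockout or other treatment arm, and the labels name no sort for the reporter before the ChIP. The ESCs had been kept on mouse embryonic fibroblast feeders before differentiation. The deposited list holds peaks common to both replicates, with no height, score or read number, so depth and replicate error are unknown and a peak is either listed or not. Intervals below are 95% Wilson intervals, and they and the tests cover counting error within this one list only. Peaks that share a gene or a repeated sequence are not independent, so the p-values may be too small.

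Isl1 is a LIM-homeodomain factor that marks progenitors of the second heart field, which contribute the outflow tract, the right ventricle and much of the atria. Homeodomain proteins typically contact a TAAT core in DNA. DNA within a few kb upstream of a TSS can hold proximal enhancers, unannotated alternative starts and the promoters of neighbouring genes, but also transposable elements and simple repeats, where a short read can fit at many places in the genome.

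The upstream proximal peaks fell into 3 kinds of sequence. For copy number, each 31-mer of the 200 bp around the peak middle was counted over the genome in either orientation and the median count was taken, and a peak with a value of at least 2 is called multi-copy. Occurrences inside the window itself were counted, so a local tandem repeat could be called multi-copy without copies elsewhere. Complexity was the number of distinct 6-mers among the 195 in the same window. Peaks with fewer than 100 distinct 6-mers were called low-complexity, and the others were complex multi-copy or complex single-copy. There were 209 low-complexity peaks (33.9%, interval 30.2 to 37.7), 128 complex multi-copy peaks (20.7%, 17.7 to 24.1) and 280 complex single-copy peaks (45.4%, 41.5 to 49.3). The limit of 100 was chosen after the values had been seen, so the kinds are described without a test.

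Examples of the 3 kinds are shown because most later values differ between them. The sequences are of the plus strand of mm9 (NCBI m37), from 5′ to 3′. The first pair comes from the largest groups of upstream proximal peaks that share sequence, where 2 peaks were joined if they had at least 20 31-mers in common. Capitals mark the 31-mer that most peaks of the group held.
Serpinb5, chr1:108751622-108751821, complex multi-copy: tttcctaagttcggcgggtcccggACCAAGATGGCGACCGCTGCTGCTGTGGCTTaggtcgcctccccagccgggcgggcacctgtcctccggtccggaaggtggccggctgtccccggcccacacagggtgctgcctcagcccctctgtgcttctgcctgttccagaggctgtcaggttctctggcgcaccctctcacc
Slc19a2, chr1:166171113-166171312, low-complexity: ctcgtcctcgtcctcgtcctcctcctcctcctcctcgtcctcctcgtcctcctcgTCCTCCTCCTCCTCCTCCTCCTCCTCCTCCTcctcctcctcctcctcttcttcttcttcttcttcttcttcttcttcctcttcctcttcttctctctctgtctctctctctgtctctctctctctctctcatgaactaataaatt

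The next sequences are the central 100 bases of the low-complexity peaks assigned to 2 genes named below, with the first copy of the commonest 10-mer in capitals. That 10-mer occurred 32 times in the central 200 bp at Gdf3 and 9 times at Tcap.
Gdf3, chr6:122565585-122565684: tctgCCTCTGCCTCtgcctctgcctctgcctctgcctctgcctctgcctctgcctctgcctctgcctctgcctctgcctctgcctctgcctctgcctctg
Tcap, chr11:98242780-98242879: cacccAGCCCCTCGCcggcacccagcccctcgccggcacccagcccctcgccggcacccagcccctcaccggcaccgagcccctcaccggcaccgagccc

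The complex single-copy kind is represented by the central 200 bases of the 4 peaks assigned to regulators of heart development. Capitals mark any of the strings searched below other than the E-box.
Msx2, chr13:53571393-53571592: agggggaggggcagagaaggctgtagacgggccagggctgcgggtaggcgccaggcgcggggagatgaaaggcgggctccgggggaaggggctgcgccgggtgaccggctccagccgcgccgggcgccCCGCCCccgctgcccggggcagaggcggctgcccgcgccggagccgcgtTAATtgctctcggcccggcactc
Nr2f2, chr7:77506668-77506867: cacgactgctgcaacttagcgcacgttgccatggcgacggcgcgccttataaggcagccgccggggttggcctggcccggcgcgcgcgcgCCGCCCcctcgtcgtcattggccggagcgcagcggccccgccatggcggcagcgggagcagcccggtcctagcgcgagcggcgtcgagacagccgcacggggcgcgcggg
Smarcd3, chr5:24110565-24110764: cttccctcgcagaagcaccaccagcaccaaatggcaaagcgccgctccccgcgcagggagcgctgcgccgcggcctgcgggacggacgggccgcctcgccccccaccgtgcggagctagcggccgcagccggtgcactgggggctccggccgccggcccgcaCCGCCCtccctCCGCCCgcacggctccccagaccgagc
Tbx1, chr16:18588479-18588678: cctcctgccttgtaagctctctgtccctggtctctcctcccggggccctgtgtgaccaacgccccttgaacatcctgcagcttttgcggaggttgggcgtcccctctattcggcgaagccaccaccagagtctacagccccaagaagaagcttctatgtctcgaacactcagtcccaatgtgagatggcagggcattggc

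Distance from the TSS separated the kinds. From 1 to 2 kb upstream there were 112 peaks, of which 85 (75.9%, 67.2 to 82.9) were complex single-copy. From 9 to 10 kb there were 48, of which 15 (31.2%, 19.9 to 45.3) were of that kind. The number of low-complexity peaks per kb had no such slope, and ranged from 17 to 29 over the 9 bins, with 20 in the first and 17 in the last. Complex multi-copy peaks numbered 7 from 1 to 2 kb and 16 from 9 to 10 kb, where they were 33.3% (21.7 to 47.5) of the peaks. Downstream of the TSS, the low-complexity peaks per kb ranged over nearly the same values, from 18 to 30, whereas the complex single-copy peaks numbered 154 in the first kb and 36 in the last.

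**Figure D1:**
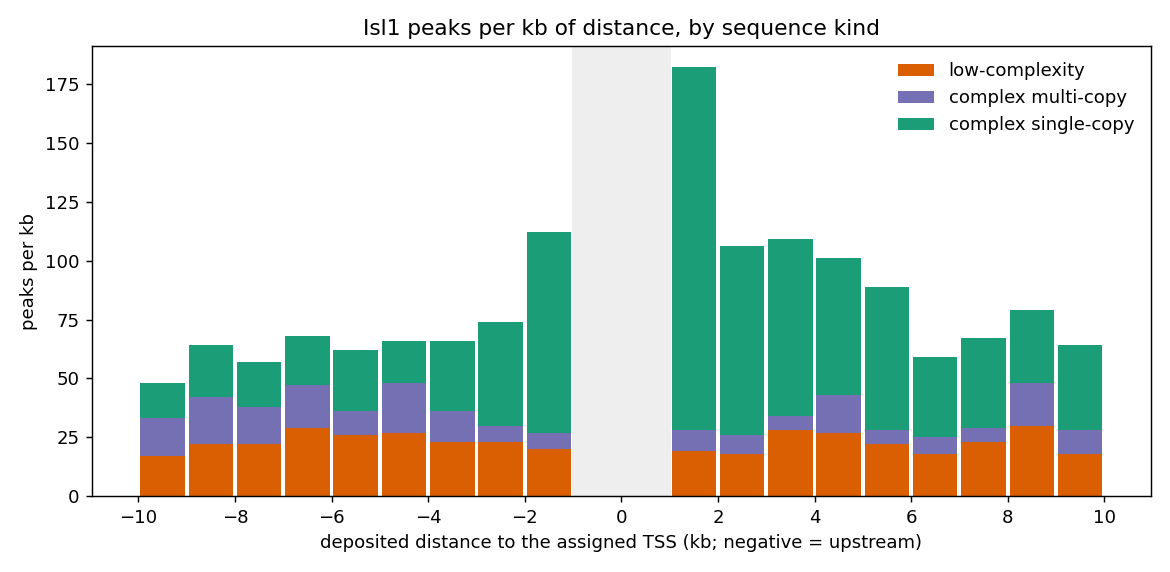
Number of Isl1 peaks in each kb of deposited distance (x axis, kb, negative is upstream), stacked by sequence kind, with the promoter interval in grey. Complex single-copy peaks (green) number 85 from 1 to 2 kb upstream and 15 from 9 to 10 kb, while the low-complexity peaks (orange) stay between 17 and 29 per kb.

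Upstream proximal peaks were centred at repeated sequence more often than downstream proximal peaks. By copy number alone, 302 of the 617 upstream proximal peaks (48.9%, 45.0 to 52.9) were multi-copy, against 263 of 856 downstream proximal peaks (30.7%, 27.7 to 33.9). The odds ratio was 2.16 (Fisher's exact test, two-sided, adjusted p = 3.93e-12, Benjamini-Hochberg over 8 comparisons of classes). The share was far above the 2.62% (142 of 5416) of promoter peaks (odds ratio 35.6, Fisher's exact test, adjusted p = 1.19e-218). It was below the 81.2% (5839 of 7193) of distal peaks (odds ratio 0.222, Fisher's exact test, adjusted p = 1.44e-64). Low-complexity peaks made up 174 of the 302 upstream and 177 of the 263 downstream multi-copy peaks, and some of these may repeat only within their own window. Counted with 75-mers, 161 upstream proximal peaks (26.1%, 22.8 to 29.7) were multi-copy. Windows of the same size 2 kb to the lower and to the higher coordinate were multi-copy at 15.4% and 17.5% of the upstream proximal peaks. Around the downstream proximal peaks these shares were 10% and 8.88%. In both classes the flanks were thus multi-copy less often than the centres, but the surroundings differed between the classes in the same direction. The position in genes differed too, with 60.3% of the upstream and 14.3% of the downstream proximal centres intergenic. How far these differences bear on the comparison of the centres was not tested.

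The kinds differed between the classes as well. Low-complexity sequence made up 23.7% (21.0 to 26.7) of downstream proximal, 0.960% (0.733 to 1.26) of promoter and 32.5% (31.4 to 33.6) of distal peaks, so the 33.9% upstream lay close to the distal value. Complex multi-copy sequence made up 10.0% (8.21 to 12.2) of downstream proximal and 52.9% (51.7 to 54.0) of distal peaks, and the upstream value of 20.7% lay between them. In the flanks of the upstream proximal peaks, 5 windows on the lower side (0.810%) and 3 on the higher side (0.486%) were low-complexity, against 209 at the centres.

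**Figure D2:**
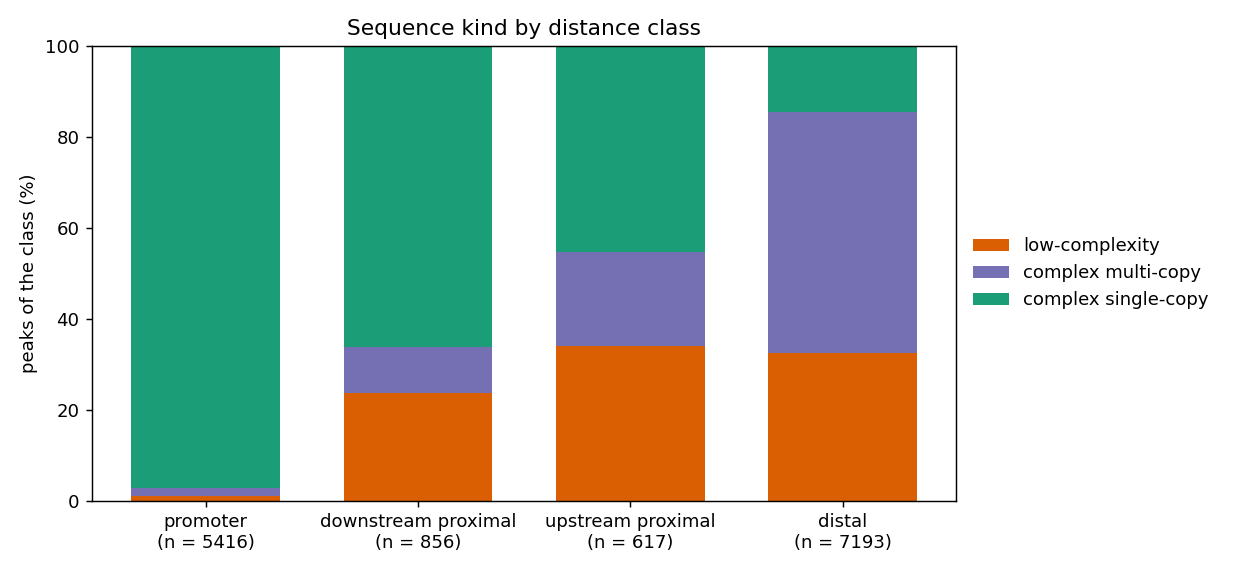
Share of peaks (y axis, %) of each sequence kind in the 4 distance classes (x axis, with the number of peaks). Complex single-copy sequence makes up 97.2% of promoter, 66.2% of downstream proximal, 45.4% of upstream proximal and 14.6% of distal peaks.

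The low-complexity peaks were mainly tracts with purines on one strand and pyrimidines on the other. In 134 of the 209 (64.1%, 57.4 to 70.3), at least 80% of the bases of the central 200 bp were purines on 1 strand, against 2 of the 408 complex peaks (0.490%). An unbroken purine or pyrimidine run of at least 100 bp was found in 106 of them (50.7%, 44.0 to 57.4). Perfect tandem repeats of a unit of up to 6 bp that ran for at least 24 bp were found in 142, and in 106 of those 142 (74.6%) the unit was of purines only. The commonest unit was AGAGG, in 22 peaks with a longest tract of 184 bp, followed by AGG in 21, AAG in 19 and the dinucleotide AC in 14. A unit stands here for all its rotations and its reverse complement. The 5 AGAGGC peaks, to which Gdf3 belongs, had a median tract of 200 bp, the whole window.

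Low-complexity peaks were narrow and poor in CpG. They had a median width of 661 bp (interquartile range 567 to 825), below the 810 bp (640 to 1124.5) of complex single-copy peaks and the 1040.5 bp (846 to 1412.5) of complex multi-copy peaks. Their median GC content was 58.5%, and their median ratio of observed to expected CpG was 0 over the 140 peaks for which it could be computed, which needs both C and G in the window. By 31-mers 174 of them (83.3%, 77.6 to 87.7) were multi-copy, but by 75-mers only 60 (28.7%, 23.0 to 35.2) were. The windows 2 kb away were multi-copy at 4.78% and 6.22% of these peaks.

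**Figure D3:**
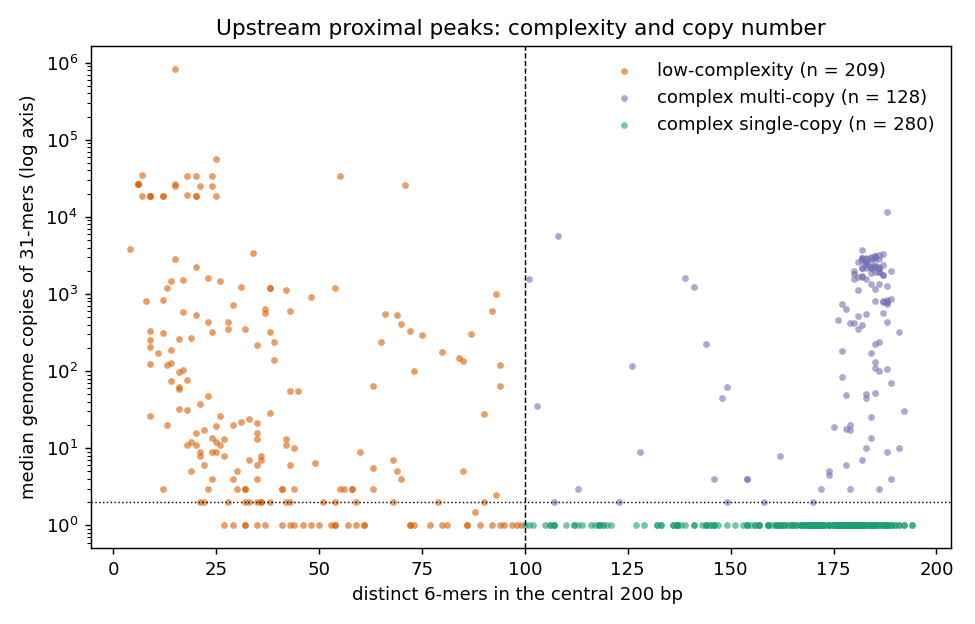
Each point is an upstream proximal peak, with its number of distinct 6-mers (x axis) and the median genome copies of its 31-mers (y axis, log scale), coloured by kind. The dashed line is at 100 distinct 6-mers and the dotted line at 2 copies. Low-complexity peaks spread from 4 to 99 distinct 6-mers, and complex multi-copy peaks have a median of 183.

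Complex multi-copy peaks ranged widely in copy number, from 2 to 11551.5. Their median copy number was 802 (interquartile range 48 to 2201.1), and 60 of the 128 (46.9%, 38.4 to 55.5) had at least 1000 copies. Their surroundings were repeated as well, since the windows 2 kb away were multi-copy at 56.2% and 66.4% of them. They had a narrow base composition, with a median GC content of 65.0% (interquartile range 62 to 66.5) and a median CpG ratio of 0.583 (0.499 to 0.658). No repeat annotation was used here, so the elements are not named.

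Sharing of sequence tied peaks at unrelated genes together. Of the 617 peaks, 173 fell into 18 groups joined by shared 31-mers. The largest held 41 peaks on 16 chromosomes, all complex multi-copy, with a median of 2197.5 copies in the genome and a median GC content of 65.5%. The 31-mer in capitals in the Serpinb5 sequence above was held by 33 of them. These peaks were assigned to genes as different as Serpinb5, which encodes a serpin, Il23r, which encodes a cytokine receptor, and Wasl, which encodes an actin regulator, and 35 of the 41 lay between genes. The second group held 39 peaks, 36 of them low-complexity, on 16 chromosomes, and 26 shared the tract marked in the Slc19a2 sequence. The next groups held 16, 14, 14 and 13 peaks, of which those of 16 and 13 and one of the groups of 14 were complex multi-copy throughout.

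Olfactory receptor (Olfr) genes, which lie in large clusters, were assigned 26 upstream proximal peaks (4.21%, 2.89 to 6.1), 26 of the 856 downstream proximal peaks (3.04%, 2.08 to 4.41) and 112 of all 14082 peaks (0.795%). Of these, 17 were complex multi-copy, 9 were low-complexity and 0 of the 280 complex single-copy peaks were at an Olfr gene. For a count of 0, the upper limit given in this text is the share that 3 counts would make, here 1.07%, and it covers counting error only. Telomere-type repeats of the unit AACCCT ran for at least 24 bp in 5 peaks, assigned to Mir7211, C130079G13Rik, Cox8c, Wwox and Olfm1. The longest was 74 bp, at Mir7211.

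The complex single-copy peaks were GC-rich and lay in annotated genes more often than the other upstream proximal kinds. Their median GC content was 70.0% (interquartile range 63.5 to 74.5) and their median CpG ratio was 0.746, against 74.0% and 0.930 for promoter peaks. In 112 (40.0%, 34.4 to 45.8) the centre was intergenic in the GENCODE annotation of this build, in 62 (22.1%, 17.7 to 27.4) it was in a coding exon, in 68 (24.3%) in an intron and in 31 (11.1%) in a UTR. Among low-complexity peaks 3 (1.44%) and among complex multi-copy peaks 2 (1.56%) were centred in a coding exon. The 567 complex single-copy peaks of the downstream proximal class were in a coding exon more often, at 55.4% (51.3 to 59.4). Only 7.05% (5.22 to 9.46) of those were intergenic, and their median GC content was 68%. Another peak lay within 10 kb of 118 complex single-copy peaks (42.1%, 36.5 to 48.0), of 68 low-complexity (32.5%, 26.5 to 39.2) and of 20 complex multi-copy peaks (15.6%, 10.3 to 22.9).

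**Figure D4:**
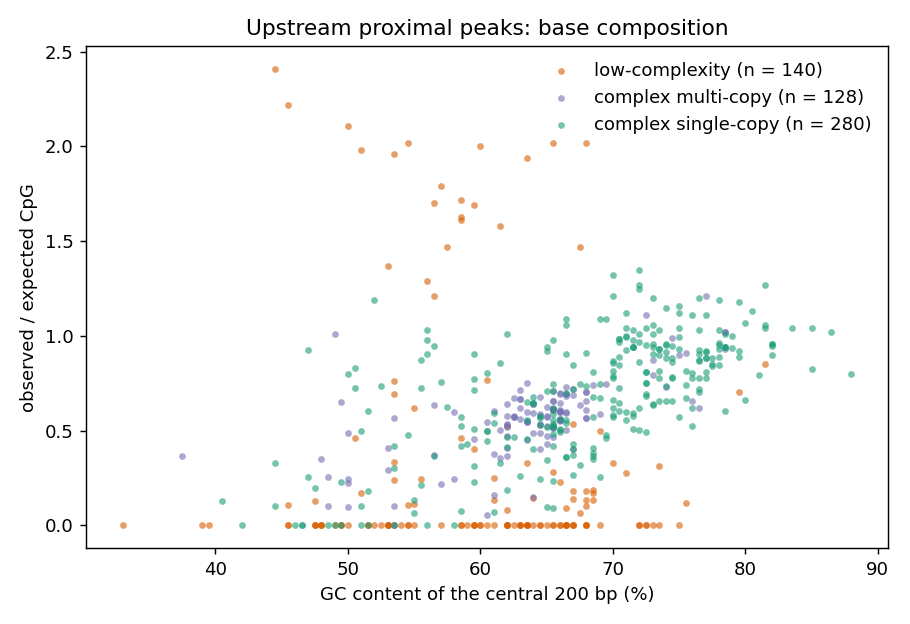
GC content (x axis, %) and observed to expected CpG (y axis) of the central 200 bp of upstream proximal peaks, with 1 point per peak coloured by kind. Complex single-copy peaks have a median CpG ratio of 0.746 and complex multi-copy peaks one of 0.583, while the low-complexity peaks that have a ratio have a median of 0.

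To see how many peaks lay at a start other than that of the assigned transcript, the centres were compared with all annotated transcript starts. There were 105 peaks (17.0%, 14.3 to 20.2) within 1 kb of an annotated TSS, 36 at another start of the assigned gene and 69 at the start of a gene with another name. Of the 69, 52 had a strand known for the assigned gene, and the neighbouring gene pointed the opposite way in 27 and the same way in 25. Complex single-copy peaks made up 84 of the 105. The peak assigned to Gipc3 was 19 bp from a start of Hmg20b, and a peak assigned to 2310011J03Rik was 286 bp from a start of Pcsk4. The share was 27.7% (20.2 to 36.6) from 1 to 2 kb, 17.5% (12.9 to 23.2) from 2 to 5 kb and 12.7% (9.4 to 17) at 5 kb and beyond. It did not differ from the 18.7% of downstream proximal peaks beyond counting error (odds ratio 0.892, Fisher's exact test, adjusted p = 0.514). Measured to the closest protein-coding start of this annotation, 452 of the 617 peaks stayed in the upstream window, 62 became promoter, 39 downstream proximal and 64 distal peaks.

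Upstream and downstream proximal peaks differed in some other features. Peaks wider than 947 bp, the median of the whole list, were 33.4% (29.8 to 37.2) of the upstream and 40.2% (37.0 to 43.5) of the downstream proximal peaks (odds ratio 0.746, Fisher's exact test, adjusted p = 0.0140). In the exact test this was not past the threshold of 0.05 from 2 kb outward (adjusted p = 0.521) or at complex sequence alone (adjusted p = 0.330). A GC content above the list median of 66.5% was found in 37.3% (33.6 to 41.2) of the upstream and 47.1% (43.8 to 50.4) of the downstream proximal peaks (odds ratio 0.668, Fisher's exact test, adjusted p = 3.75e-04). At single-copy peaks alone this difference was not past the threshold (odds ratio 0.895, Fisher's exact test, adjusted p = 1). The assigned gene had another peak for 46.7% of the upstream and 47.0% of the downstream proximal peaks (odds ratio 0.989, Fisher's exact test, adjusted p = 0.916). Chromosome X held 10 upstream proximal peaks (1.62%, 0.883 to 2.96), against 21 (2.45%) downstream (odds ratio 0.655, Fisher's exact test, adjusted p = 0.477). None of the 280 complex single-copy peaks was on chromosome X, which allows up to 3 counts, or 1.07%. Of the downstream proximal peaks of that kind, 5 of 567 (0.882%) were, a share below this limit.

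To ask which short strings typical of cardiac factors lay under the peaks, the central 200 bp was searched on both strands and compared with the windows 2 kb to either side. The LIM-homeodomain strings CTAATGG or CTAATTG occurred in 5 of the 617 centres (0.810%, 0.347 to 1.88), and in 3.08% and 2.76% of the lower and higher flanks (two-sided exact McNemar test, adjusted p = 0.0138, Benjamini-Hochberg over 7 strings). Each flank was tested, and the larger of both p-values was kept. This depletion was not past the threshold at single-copy peaks alone (ratio of centre to flank share 0.526, exact McNemar test, adjusted p = 0.754). In all 14082 peaks 0.412% of the centres held them. All 5 were complex single-copy, while 0 of 209 low-complexity peaks (3 counts would be 1.44%) and 0 of 128 complex multi-copy peaks (3 counts would be 2.34%) held one. The stretches around 4 of these strings are shown with the string in capitals.
Dnajc22, chr15:98924112-98924154: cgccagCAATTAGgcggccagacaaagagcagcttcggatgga
Gipc3, chr10:80809507-80809556: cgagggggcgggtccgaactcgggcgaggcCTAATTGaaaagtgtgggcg
Kctd15, chr7:35439784-35439850: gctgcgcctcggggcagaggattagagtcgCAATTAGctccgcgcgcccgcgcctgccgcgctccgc
Mir195b, chr2:56629253-56629300: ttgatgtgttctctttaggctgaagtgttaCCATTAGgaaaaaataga

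The peaks of Dnajc22, Gipc3 and Kctd15 were 610, 19 and 387 bp from an annotated start, of Dnajc22, Hmg20b and Kctd15. Those of Mir195b and Wwox were farther from the closest annotated start, at 76944 and 2754 bp. The string at Wwox lay beside the telomere-type repeat of that peak.

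The homeodomain core TAAT, which the LIM strings contain, was present in 18.8% (15.9 to 22.1) of the centres and in 61.6% and 66.3% of the flanks (exact McNemar test, adjusted p = 1.98e-49). It was held by 19.4% of all centres in the list. The GATA strings AGATAA or AGATAG or TGATAA or TGATAG were in 5.67% (4.11 to 7.79) of the centres against 29.7% and 28.2% of the flanks (exact McNemar test, adjusted p = 3.09e-25), and in 4.22% of all peaks. The string TNAAGTG, of the type bound by NKX2 factors, was in 1.13% (0.551 to 2.32) against 10.9% and 12.6% (exact McNemar test, adjusted p = 1.02e-13), and in 1.45% of all peaks. The E-box CANNTG, which basic helix-loop-helix factors bind, was in 40.2% (36.4 to 44.1) against 63.0% and 63.2% (exact McNemar test, adjusted p = 3.09e-14), and in 42.1% of all peaks. The T-box string AGGTGT was in 7.62% (5.78 to 9.98) against 11.5% and 10.9%, which was not past the threshold (exact McNemar test, adjusted p = 0.0619), and in 7.17% of all peaks. Besides TAAT within the LIM strings, TNAAGTG holds an E-box when its N is C.

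The GC box GGGCGG, the string bound by Sp and KLF factors, was the only one of the 7 found more often in the centres. It was in 202 centres (32.7%, 29.2 to 36.5) against 5.02% and 5.19% of the flanks (exact McNemar test, adjusted p = 2.38e-34), and in 42.0% of all peaks. It was in 48.2% of complex single-copy, 48.4% of complex multi-copy and 2.39% of low-complexity peaks. TAAT was in 19.3%, 43.0% and 3.35% of the same kinds. The kinds did not all follow the pooled peaks. At low-complexity peaks the flanks held the GC box at 3.83% and 4.31%, above the centres. At complex multi-copy peaks the T-box string was in 12.5% of the centres against 6.25% and 4.69% of the flanks. These values by kind were not tested. The median GC content was 65.0% in the centres and 46.5% in both flanks, so base composition changed together with these strings, and its part in the counts was not tested.

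**Figure D5:**
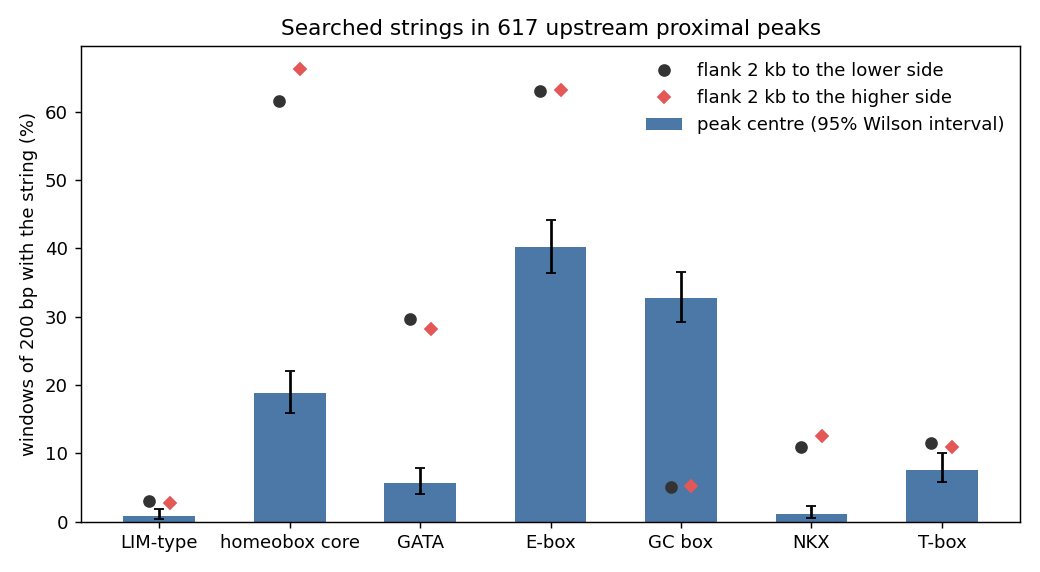
Share of 200 bp windows (y axis, %) that hold each string (x axis, named by factor type, with the homeobox core for the shortest homeodomain string). Bars are the 617 peak centres with 95% Wilson intervals, and points are the windows 2 kb to the lower and higher coordinate. Only the GC box is higher in the centres, at 32.7% against 5.02% and 5.19%.

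The peaks were assigned to 595 gene names, of which 593 were matched to a RefSeq table. Of its 21896 protein-coding genes, 511 (2.33%) had an upstream proximal peak, and 225 (1.03%) had one at complex single-copy sequence. A promoter peak was listed for 5085 (23.2%). Among the 511 genes, 138 (27%, 23.3 to 31) also had a promoter peak, and 274 had no other peak. Among the 225 with a complex single-copy peak, 67 (29.8%, 24.2 to 36.1) had a promoter peak. Each gene name had 1 upstream proximal peak in 575 cases, and 20 names had more.

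The 16 gene lists together held 524 genes, and 17 of them had an upstream proximal peak, 1 each. Over all protein-coding genes it was 511 of 21896 (2.33%), and the count on the lists was not tested. Of the 17 peaks, 11 were complex single-copy, 5 were low-complexity and 1 was complex multi-copy. Within 3.5 kb of the TSS, 10 of 12 were complex single-copy. That limit was not planned, is used only here and falls just beyond the Msx2 peak. The share of all upstream proximal peaks within it was not computed. That kind made up 75.9% of all upstream proximal peaks from 1 to 2 kb. It made up 59.5% from 2 to 3 kb and 45.5% from 3 to 4 kb. A promoter peak was also listed for 7 of the 17 genes, and 8 had no other peak. Among all 511 protein-coding genes with an upstream proximal peak, these numbers were 138 and 274.

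Of 50 cardiac transcription factor genes, 3 (6%, 2.06 to 16.2) had an upstream proximal peak, beside 2.33% of all protein-coding genes, and all 3 peaks were complex single-copy. The interval includes the share over all genes, so the count is not set apart from it. Msx2, a homeobox factor of the endocardial cushions and neural crest, had its only peak 3343 bp upstream, with a width of 737 bp and a GC content of 78%. Nr2f2, an orphan nuclear receptor of atrial cells, had a peak 1288 bp upstream, in an annotated intron of the Nr2f2 gene itself. It was 1 of 5 peaks of that gene. Tbx1, a T-box factor of pharyngeal and second heart field mesoderm, had a peak of 1234 bp that was 1516 bp upstream of the assigned start and 465 bp from a Tbx1 start of the GENCODE annotation. Its GC content of 58.5% was the lowest of the 3, and it held none of the strings marked above. Tbx1 also had a promoter peak and a peak 4623 bp downstream.

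Among 38 chromatin remodelling genes, 2 (5.26%, 1.46 to 17.3) had an upstream proximal peak, an interval that includes the 2.33% of all protein-coding genes. Smarcd3 encodes Baf60c, the subunit of the SWI/SNF remodelling complex found in the heart, and its peak lay 2844 bp upstream, in addition to a promoter peak at a distance of 0 bp. It had a GC content of 78.5%, a CpG ratio of 0.941 and 2 GC boxes in the central 200 bp. Chd4, the ATPase of the NuRD complex, had its only peak 2892 bp upstream at complex multi-copy sequence with a median of 184.5 copies. Of 11 regulator genes that the study discussed, Msx2 and Smarcd3 (18.2%, 5.14 to 47.7) had an upstream proximal peak, and of 6 structural genes it discussed, Mybpc3 did. The study chose those genes partly on these samples and partly on Isl1 ChIP-Seq of embryos and expression data of embryos and CPCs. Their counts are therefore not independent evidence.

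Of 42 sarcomere and contraction genes, 3 (7.14%, 2.46 to 19) had an upstream proximal peak, beside 2.33% of all protein-coding genes. The lower end of the interval lies just above that share, the list is 1 of 16, and the count was not tested. Kcnh2, a potassium channel of cardiac repolarisation, had one 1057 bp upstream, close to the inner limit, and 2 promoter peaks. Mybpc3, cardiac myosin-binding protein C, had its only peak 2655 bp upstream, centred in an annotated UTR of another gene, Sfpi1. Tcap, the titin cap protein, had its only peak 2296 bp upstream, on the tandem repeat shown above.

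Each signalling list held 1 or 2 genes with an upstream proximal peak, beside 2.33% of all protein-coding genes. In the FGF list, 1 of 40 genes had an upstream proximal peak, namely Dusp6, a phosphatase that dampens ERK signalling, with its only peak 1505 bp upstream at complex single-copy sequence. In the Notch list it was 2 of 25. Hes1, a transcriptional repressor downstream of Notch, had a complex single-copy peak of 1606 bp at 1381 bp upstream, which was 408 bp from a GENCODE start of Hes1. Dll4, a Notch ligand, had its only peak 6430 bp upstream on low-complexity sequence with 77 distinct 6-mers. Of 58 Wnt genes, Wnt7b, a ligand, had a complex single-copy peak 9046 bp upstream, 1 of 4 peaks of that gene. Of 31 hedgehog and retinoic acid genes, Rarg, a retinoic acid receptor, had one 1338 bp upstream and 2 promoter peaks. Of 59 BMP and TGF-beta genes, Gdf3, a ligand expressed in pluripotent cells, had its only peak 5529 bp upstream on a tandem repeat. The 31-mers of that peak had a median of 26598 occurrences in the genome, many of which can lie in the same tract. Gdf3 was also the only one of 30 pluripotency genes.

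The intervals of the lists for other cell types include the 2.33% of all protein-coding genes, so their counts are not set apart from it. Of 50 neural and homeobox genes, 1 (2%, 0.354 to 10.5) had an upstream proximal peak. It was Barhl1, with a peak at 1447 bp, a promoter peak and a downstream proximal peak. Of 30 hepatocyte genes, 1 (3.33%, 0.591 to 16.7), Ass1, an enzyme of the urea cycle, had one on low-complexity sequence. None of 30 blood and endothelial genes and none of 20 feeder and fibroblast genes had an upstream proximal peak, although 20 and 10 of them had a peak of some class. With so few genes, 3 counts would make shares of 10% and 15%.

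The genes with most upstream proximal peaks held all 3 kinds of sequence. Gm3383 had 4 peaks, all complex multi-copy with 3 to 8 copies and from 4816 to 4997 bp upstream, and these were from 17 to 96 bp from annotated starts of Gm3383, Gm3194, Gm10021 and Gm3358. The 9 other names first in the order had 2 each. At Cdk6, a cell cycle kinase, they lay 2588 and 1367 bp upstream. At Fosl2, an AP-1 factor, they lay 3234 and 1043 bp upstream, and the first was 70 bp from a start of Gm10463. At Espn, an actin-bundling protein, they lay 2333 and 2479 bp upstream of different starts, both in coding exons, and the first was 28 bp from an annotated Espn start. All these were complex single-copy, as were the peaks of 2310011J03Rik, Ccdc92b and 1010001N08Rik. Those of Cftr, the chloride channel, and of Dynlt1a were complex multi-copy, and those of Aebp2, a partner of Polycomb repressive complex 2, were low-complexity.

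The widest upstream proximal peak, of 5794 bp at 9130204L05Rik, was complex multi-copy with 3084.5 copies. The next, of 3061 bp at 1700048O20Rik, was a tract with 4 distinct 6-mers in 195. Those of A330074K22Rik (2372 bp, the third) and Grm4 (2282 bp, the fifth) were complex single-copy, and that of Grm4, a glutamate receptor, was 545 bp from another annotated start of Grm4. The fourth widest, of 2303 bp at 1700020N15Rik on chromosome X, had 3027.5 copies.

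At the inner limit, the closest peaks inside the window were those of Ggta1 (1008 bp), Kcnd2 (1027 bp) and Usp49 (1028 bp), and the closest outside were those of Ebf3 (1000 bp), Mir148a (996 bp) and Rbpj (979 bp). All 6 were complex single-copy, and the Kcnd2 peak was 421 bp from another start of that gene. At the outer limit, those inside were at Kiz (9995 bp, a tract), Zfp541 (9964 bp) and Afdn (9917 bp). The 31-mers of the Kiz tract had a median of 26605 occurrences in the genome. Those outside were at Ikzf4 (10018 bp, a tract), Gm11564 (10069 bp, complex with 2631 copies) and Grid2ip (10123 bp).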

How the data were processed

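The authors aligned reads to mm9 with Bowtie2 at default settings, removed duplicates with Picard 1.136 and called peaks with MACS14. Peaks on the ENCODE blacklist were removed, bedtools 2.15 (intersect) kept the areas found in each of the replicates, and HOMER assigned each peak to its closest TSS. With Bowtie2 defaults a read that fits several places equally is placed at one of them, and how this bears on peaks at repeated sequence was not tested. The deposited list of 14165 lines was used without identical repeats, which left 14082 peaks. It does not state whether starts count from 0 or 1, so coordinates are uncertain by 1 bp. For 376 of the 518 upstream proximal peaks with a gene on 1 strand of the GENCODE annotation, the deposited distance was within 10 bp of that from the peak middle to a start of that gene. Gene names came from a RefSeq table of another assembly (GRCm38), without its coordinates.

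K-mer copies, strings and annotations were computed on NCBI m37 (the mm9 sequence) with Python 3.11.15 and numba 0.67.0, and the tests with scipy 1.17.1. Scripts were tested on simulated data. Members and lists were chosen with earlier results of these data known. Named genes were those of the 16 lists with an upstream proximal peak, the 10 with most such peaks (ties in alphabetical order), those of the 5 widest, those of the 3 peaks on each side of each limit, and those with a LIM string. A few of the genes and sequences so chosen are not reported. Sequence kinds, groups of shared 31-mers and tandem repeats were added after seeing the data.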

Additional observations from a re-analysis of the deposited data

How the results depend on the processing

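The multi-copy comparisons with each class did not change direction or call under any alternative run (width of at least 500 bp, window from 2 kb or to 5 kb, 75-mers, at least 10 copies, complex sequence only). The size moved most against promoter peaks, from an odds ratio of 35.6 to 87.6 with at least 10 copies, and against distal peaks, from 0.222 to 0.126 at complex sequence. Complex sequence, and complex single-copy peaks below, were chosen after seeing the data. The number of upstream proximal peaks was 318 with the window to 5 kb, 315 at single-copy and 280 at complex single-copy sequence, and the number of protein-coding genes was 255 at single-copy peaks. The width difference was weaker from 2 kb (odds ratio 0.885) and at complex sequence (0.851), and the GC difference at single-copy peaks (0.895) and at complex sequence (0.764). The share at an annotated TSS, not past the threshold, turned direction from 2 kb (1.03), at single-copy peaks (1.11), within 500 bp (1.09) and at complex sequence (1.03), and the share with another peak of the gene did so with the window to 5 kb (1.09). In the central 100 bp the T-box depletion passed the threshold (ratio 0.519, exact McNemar test, adjusted p = 0.0391). The LIM-string depletion did not pass it at single-copy or complex single-copy peaks (0.526 in both). The cause of these changes was not tested. The other 68 of 84 values kept direction and side of the threshold, or stayed within 1.5 times.

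No paired analysis was possible because only 1 list was made from the 2 ChIP replicates, and the single input has no partner for a second one. Leaving out each replicate could not be run for the same reason. No read depth, peak height or input signal was analysed here, so how strongly any peak was enriched, and whether repeats drew reads in the input too, was not tested.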
